A study of Mus musculus with 12 samples.

Results

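Cells make cholesterol and fatty acids from the same precursor, acetyl-CoA, and the enzymes of both routes are under the control of a single family of transcription factors. The mRNA of 34 such genes was examined in tumourspheres of a pair of lung-metastatic mouse mammary cancer lines, LM1 and LM9, and of cells labelled as their Nfib knockouts. The 34 genes were taken by name from a list, by a rule that uses no measured value, though the list was drawn up with earlier results of these data known. All 34 were among the 18278 genes counted in each library and passed the filter on low counts. The list held 19 genes of the cholesterol branch, 10 of the fatty acid branch and 5 regulators.

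LM1 and LM9 were isolated from lung metastases of HR1 cells, a line from a mouse mammary tumour with an activating PIK3CA mutation, after piggyBac transposon mutagenesis. Per the study's methods, the knockouts were made with CRISPR-Cas9 against Nfib, the gene of the transcription factor nuclear factor IB, and each was a pool of a few clones of 1 line. By the study's description, parental and knockout cells share the PIK3CA mutation and the transposon history of their line, which the counts do not check. All were grown for 6 days in non-adherent plates without serum, with 20 ng per mL of EGF and the same of basic FGF. Each of the 4 groups had 3 libraries. No source says that they were separate cultures, so p-values measure only the spread between these libraries.

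In the cell, SREBP precursors sit in the membrane of the endoplasmic reticulum bound to SCAP, their escort. When sterols are scarce, SCAP carries them to the Golgi, where proteases release the active factor. When sterols are plentiful, INSIG proteins hold SCAP back. SREBP2, the product of Srebf2, acts mainly on cholesterol genes, and SREBP1, the product of Srebf1, mainly on fatty acid genes. At many of their promoters SREBPs bind a sterol response element beside a CCAAT box, the site of the factor NF-Y.

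The letters of these elements were searched for in the promoters of the listed genes that had a RefSeq window, and 5 windows are printed to show where the letters occur and where they do not. Each sequence below is the 250 bases before the RefSeq start on GRCm38.p6, written 5′ to 3′ on the strand of the gene, and capitals mark CACNCCAC, the core of the sterol response element, CACGTG, the E-box, and CCAAT, on either strand. Hmgcs1 is the entry enzyme of the mevalonate route, Insig1 and Hsd17b7 had the largest fall and rise of the list, and Acss2 and Acly make acetyl-CoA from different sources.
Hmgcs1 (chr13:119690101-119690350, plus strand): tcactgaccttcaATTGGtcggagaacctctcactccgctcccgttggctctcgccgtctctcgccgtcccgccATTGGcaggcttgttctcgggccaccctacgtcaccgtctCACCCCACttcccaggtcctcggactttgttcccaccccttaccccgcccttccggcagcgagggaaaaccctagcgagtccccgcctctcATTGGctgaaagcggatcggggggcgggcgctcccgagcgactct
Insig1 (chr5:28071162-28071411, plus strand): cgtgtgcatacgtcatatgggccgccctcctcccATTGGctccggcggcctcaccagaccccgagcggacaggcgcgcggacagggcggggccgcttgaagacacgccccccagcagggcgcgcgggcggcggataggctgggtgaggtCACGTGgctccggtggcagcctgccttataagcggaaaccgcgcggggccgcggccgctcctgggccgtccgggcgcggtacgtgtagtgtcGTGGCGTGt
Hsd17b7 (chr1:169969206-169969455, minus strand): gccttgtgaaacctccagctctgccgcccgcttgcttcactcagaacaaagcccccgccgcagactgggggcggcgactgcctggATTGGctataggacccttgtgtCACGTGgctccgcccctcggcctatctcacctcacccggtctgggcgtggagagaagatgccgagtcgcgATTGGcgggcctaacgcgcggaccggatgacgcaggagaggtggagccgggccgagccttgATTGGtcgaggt
Acss2 (chr2:155517793-155518042, plus strand): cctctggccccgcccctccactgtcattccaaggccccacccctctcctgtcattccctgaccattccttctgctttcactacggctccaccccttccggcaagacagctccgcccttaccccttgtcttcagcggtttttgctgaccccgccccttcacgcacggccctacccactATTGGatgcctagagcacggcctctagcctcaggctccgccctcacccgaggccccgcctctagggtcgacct
Acly (chr11:100528001-100528250, minus strand): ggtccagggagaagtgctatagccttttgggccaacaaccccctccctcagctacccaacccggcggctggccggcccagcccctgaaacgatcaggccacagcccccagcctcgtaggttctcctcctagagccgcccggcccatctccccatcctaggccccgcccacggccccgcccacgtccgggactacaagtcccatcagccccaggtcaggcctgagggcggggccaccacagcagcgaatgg

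The Hmgcs1 window held CACNCCAC 136 bases before the start and 3 CCAAT boxes. In Insig1 the core was 9 bases and the E-box 101 bases before the start. The Hsd17b7 window had an E-box and 3 CCAAT boxes but no core, Acss2 had a CCAAT box alone, and in Acly none of these letters was found. RefSeq windows were matched for 27 of the 34 genes, in 35 windows, some of which overlapped. CCAAT was in 22 of these 35 windows (62.9%), against 33.8% of 32851 mouse windows of the same length. CACNCCAC was in 3 of the 35 windows (8.57%), those of Hmgcs1, Insig1 and Acat2, and in 5.29% of all windows. The longer TCACNCCAC, which contains that core, was in the Hmgcs1 window alone (1 of 35, 2.86%), and in 1.05% of all windows. CACGTG was in 6 of the 35 windows (17.1%), of Hsd17b7, Sc5d, Dhcr7, Insig1, Scap and Elovl5, and in 6.02% of all windows. The palindrome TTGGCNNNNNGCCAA of NFI proteins, the family of NFIB, was in none of the 35 windows and in 0.0365% of all windows. A match of letters is a description and was not tested for binding.

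Libraries had 29249075 to 37162594 counts, and values are given as CPM (counts scaled to library size with TMM factors). A difference was called at an adjusted p under 0.05 in limma-voom, fitted over 18176 genes. Nfib mRNA was no lower in knockout-labelled libraries than in their parents. It ranged from 195.6 to 240.8 CPM in LM1 against 228 to 238.5 CPM in LM1 Nfib KO, and from 119.6 to 210.2 CPM in LM9 against 227 to 247 CPM in LM9 Nfib KO. LM1 and LM1 Nfib KO overlapped (log2 fold change 0.11, adjusted p = 0.533), and in LM9 the knockout-labelled libraries were higher, without overlap (0.68, adjusted p = 0.0026 in limma-voom). Per the study's methods the guide was designed to shift the reading frame and clones were screened on immunoblots. A frameshift need not lower mRNA and counts per gene do not show one, so the label could not be checked here and the term knockout-labelled is used. The 6 knockout-labelled libraries also nearly lacked markers of luminal mammary epithelium. Summed luminal epithelial markers (Krt8, Krt18, Krt19, Epcam, Cdh1) reached 737 to 787 CPM in LM1 libraries and 786 to 1327 CPM in those of LM9, but 0.931 to 1.11 CPM in knockout-labelled libraries, with all 5 of these markers lower. The 3 basal markers counted were low throughout, with sums of 0.337 to 1.03 CPM in parental and 6.68 to 7.29 CPM in knockout-labelled libraries, in the latter mostly from Krt14. Cnn1 of this list went the other way, with means of 0.742 (LM1) and 0.318 CPM (LM9) in parental libraries and 0.0695 and 0.067 CPM in those labelled knockout. Of 3 endothelial markers, Kdr and Cdh5 were near 0 in parental libraries, and the sum went from at most 1.33 CPM to between 350.5 and 358.5 CPM. The third, Pecam1, was under 1 CPM in the mean of every group, at 0.314 and 0.433 CPM in LM1 and LM1 Nfib KO and at 0.88 and 0.332 CPM in LM9 and LM9 Nfib KO. Fibroblast markers (7 counted) summed to 174.0 to 311 CPM in parental and 1309 to 1402 CPM in knockout-labelled libraries, mostly from Col1a1. Dcn of the same list went the other way, with mean CPM of 90.7 (LM1) and 38.4 (LM9) in parental and of 11.5 and 12.35 in knockout-labelled libraries. The parental and knockout-labelled libraries correlated at r = 0.727 to 0.742 across genes, and the knockout-labelled libraries of different lines at 0.996, so in the values below the knockout label and the change of these markers cannot be told apart. LM9 replicate 1 correlated more with LM1 (0.995 to 0.996) than with LM9 replicates 2 and 3 (0.968 to 0.970), and counts of calls in LM9 are given with and without it. In bulk RNA, fewer cells of a type and less RNA per cell cannot be told apart.

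On average over both lines, 4 of the 5 regulators were called lower and 1 higher in knockout-labelled libraries, where 40.5% of all genes tested were called lower and 46.3% higher. The 6 parental and 6 knockout-labelled libraries did not overlap for any of the 5. Over all genes, knockout-labelled libraries were all lower for 34.1% and all higher for 40.6%, and nothing particular to the regulators is read from these counts. INSIG1, the retention factor that is itself a target of SREBPs, had the lowest log2 fold change of the 34. Insig1 was at 214, 219 and 211 CPM in LM1 and at 210.3, 226 and 221 CPM in LM9. It was at 23.3, 24.2 and 23.5 CPM in LM1 Nfib KO and at 24.3, 23.5 and 23.5 CPM in LM9 Nfib KO. All parental libraries were thus far above all knockout-labelled ones, with little spread in either. The log2 fold change was −3.19 ± 0.04 (SE, adjusted p = 8.83e-14 in limma-voom).

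Its paralog Insig2 fell less, and whether this difference reflects control by SREBPs was not tested. Insig2 had 132, 145 and 139 CPM in LM1 against 138, 165 and 165 CPM in LM9, and lay between 39.6 and 47.9 CPM in the knockout-labelled libraries. The groups did not overlap, and the log2 fold change was −1.75 ± 0.06 (adjusted p = 7.98e-11). Per kilobase of exon, the ratio of Insig1 to Insig2 was 1.74 ± 0.07 (SD, n = 3) in LM1 and 1.58 ± 0.11 in LM9, and 0.63 ± 0.04 and 0.59 ± 0.02 in LM1 and LM9 Nfib KO. The more abundant INSIG mRNA was therefore Insig1 in every parental library and Insig2 in every knockout-labelled library.

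Of the SREBP genes, Srebf2 was at 434, 385 and 429.5 CPM in LM1 and at 426, 537 and 542 CPM in LM9. In knockout-labelled libraries Srebf2 was at 159.9 to 171 CPM, below every parental library, with a log2 fold change of −1.47 ± 0.06 (adjusted p = 7.43e-10). Srebf1 had 89.2, 71.2 and 81.1 CPM in LM1 and 81.6, 71.1 and 68.6 CPM in LM9, against 43.1 to 48.0 CPM. The fall of Srebf1 was smaller (−0.74 ± 0.06, adjusted p = 3.99e-07), again with no overlap. Gene counts do not separate the transcripts of Srebf1. Exons of Srebf1 overlap Rai1 on the other strand, and whether counting used strand was not stated.

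Scap went the other way. It was low in parental libraries, at 11.9, 10.4 and 13.5 CPM in LM1 and at 11.7, 17.7 and 17.3 CPM in LM9. In LM1 Nfib KO it was at 66.1, 65.8 and 66.8 CPM, and in LM9 Nfib KO at 60.5, 66.5 and 68.9 CPM. Every knockout-labelled library was over 3 times the highest parental one, and the log2 fold change was 2.30 ± 0.10 (adjusted p = 5.49e-10). The escort therefore rose where its cargo and its anchors fell.

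**Figure D1:**
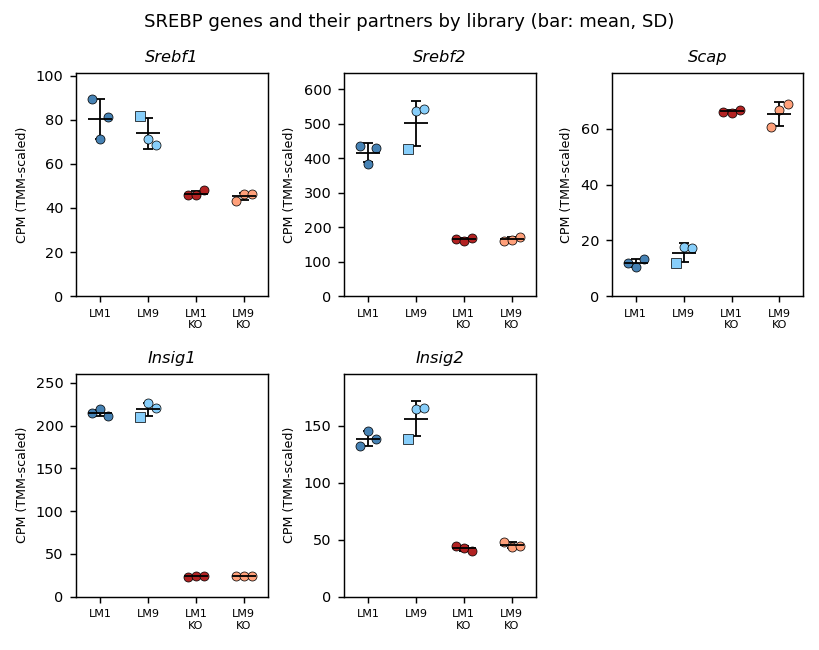
CPM (y axis, linear, from 0) of the 5 regulators in each library, by group (x axis, KO = labelled Nfib knockout), with bars for the mean and SD of 3 libraries and a square for LM9 replicate 1. Srebf1, Srebf2, Insig1 and Insig2 were lower and Scap higher in all 6 knockout-labelled libraries.

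Across the whole list, 11 genes were higher, 17 lower and 6 not called in the averaged comparison. These are 32.4% and 50% of the list, beside 46.3% and 40.5% of all genes tested, so that being called was no particular property of the 34 genes. Median log2 fold changes were −0.15 for the list and 0.11 for all genes, and 18 of 34 (52.9%) changed over 2-fold, against 56.8% of all genes. Within LM1, 12 were higher and 17 lower (43.1% and 38.1% of all genes). Within LM9, 9 were higher and 14 lower (44.3% and 38.0% of all genes), and 9 and 19 without LM9 replicate 1 (47.7% and 41.2% of all genes in that fit). Scaling by library totals moved the median of all genes by 0.22 in LM1, 0.35 in LM9 and 0.29 in the average. In the average, 17 of the 34 were then called higher and 14 lower (52.8% and 33.6% of all genes). In LM9 these counts were 16 and 13 (52.3% and 30.2% of all genes). All 6 knockout-labelled libraries were above all 6 parental ones for 9 listed genes and below them for 14, while this held for 40.6% and 34.1% of all genes.

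**Figure D2:**
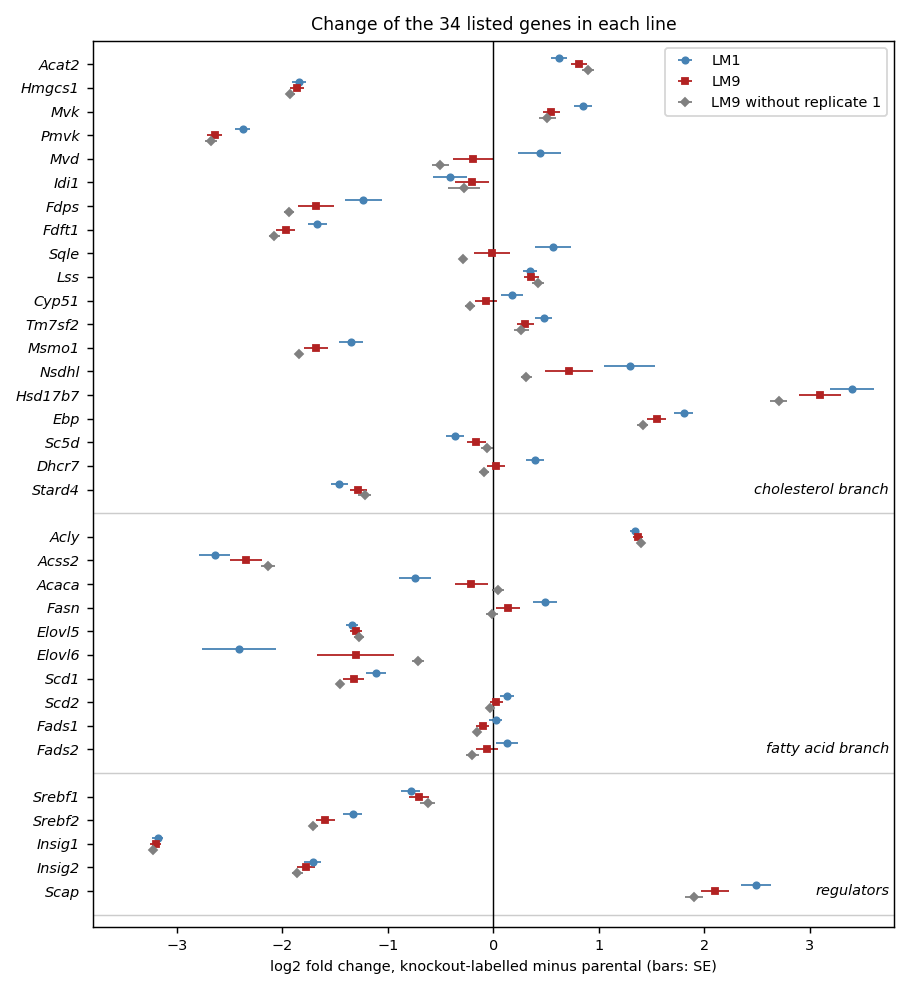
Log2 fold change (x axis, with SE) of each listed gene in LM1, in LM9 and in LM9 without replicate 1. Hsd17b7, Scap, Ebp and Acly lay to the right and Insig1, Pmvk, Acss2 and Hmgcs1 to the left in all 3, while Mvd, Sqle and Cyp51 lay on opposite sides of 0 in LM1 and in LM9 without replicate 1.

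In the cholesterol branch, 8 of 19 genes were higher, 8 lower and 3 not called, beside 46.3% higher and 40.5% lower of all genes, with a median of 0.12. That median was −0.022 without LM9 replicate 1 and 0.40 under library totals. In the mevalonate steps, Hmgcs1, the enzyme that makes HMG-CoA, and Pmvk, phosphomevalonate kinase, were among the lower genes, and Mvk, the kinase just before Pmvk, was higher. Hmgcs1 had 134, 144 and 139.8 CPM in LM1 and 132, 149 and 155 CPM in LM9. In LM1 Nfib KO Hmgcs1 was at 38.2, 38.9 and 39.0 CPM, and in LM9 Nfib KO at 39.9, 40.5 and 39.2 CPM. No libraries overlapped, and the log2 fold change was −1.85 ± 0.05 (adjusted p = 8.1e-12).

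Pmvk was at 49.6, 46.6 and 47.9 CPM in LM1, at 51.8, 56.0 and 55.9 CPM in LM9 and at 8.45 to 9.46 CPM in knockout-labelled libraries. It had the largest fall of the branch (−2.51 ± 0.05, adjusted p = 1.06e-12). Mvk was at 9.41 to 10.5 CPM in LM1, at 11.2 to 12.6 CPM in LM9, both below the 16.5 to 18.4 CPM of the knockout-labelled libraries, with a log2 fold change of 0.70 ± 0.06 (adjusted p = 2.43e-07). The successive kinases of mevalonate thus differed in direction. Acat2, which joins acetyl-CoA units, was higher by 0.72 (adjusted p = 1.18e-07), but 33.9% of its 75-base stretches also occur in Acat3 and its counts are uncertain. Mvd, mevalonate diphosphate decarboxylase, was not called (0.12, adjusted p = 0.425).

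The next steps lead to squalene. Fdps, farnesyl diphosphate synthase, fell by 1.46 on the log2 scale (adjusted p = 3.04e-07), though it shares 23.5% of its stretches with other genes and overlaps Gm43738 on the same strand. Idi1, isopentenyl diphosphate isomerase, was at 5.21 to 9.32 CPM in all libraries, with a log2 fold change of −0.31 (adjusted p = 0.0234), a call lost under library totals (−0.02) and without LM1 replicate 2, LM1 Nfib KO replicate 3, LM9 replicate 2 or LM9 Nfib KO replicate 1, and it was not called in LM9 (−0.20, adjusted p = 0.263). Of its 75-base stretches, 16.7% occur in other genes. Fdft1, squalene synthase, had 94.6, 97.0 and 92.1 CPM in LM1 and 99.5, 121 and 128 CPM in LM9. Its 6 knockout-labelled libraries were at 27.5 to 30.8 CPM, well below, with a log2 fold change of −1.82 ± 0.07 (adjusted p = 1.27e-10). Exons of Fdft1 overlap Ctsb on the other strand, and whether counting used strand was not stated. Sqle, squalene epoxidase, followed another pattern, given below with LM9 replicate 1.

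Of the enzymes after squalene, Hsd17b7, the keto-reductase of C4 demethylation, had the largest rise of the list. It was at 5.32, 5.49 and 6.04 CPM in LM1 and at 4.42, 9.03 and 9.997 CPM in LM9. In LM1 Nfib KO it was at 57.9, 60.4 and 58.9 CPM, and in LM9 Nfib KO at 58.9, 63.4 and 63.4 CPM. Every knockout-labelled library was over 5 times every parental one, and the log2 fold change was 3.24 ± 0.15 (adjusted p = 9.24e-10).

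Ebp, the sterol isomerase, rose from 19.0, 19.4 and 18.8 CPM in LM1 and 19.0, 24.6 and 25.4 CPM in LM9 to between 65.3 and 67.8 CPM. The log2 fold change was 1.67 ± 0.06 (adjusted p = 2.45e-10), and the groups were well apart. Nsdhl, the C4 decarboxylase, was at 14.2, 13.7 and 13.95 CPM in LM1 and 12.5, 28.0 and 28.3 CPM in LM9, against 32.6 to 35.9 CPM. It rose by 1.00 ± 0.17 (adjusted p = 0.000125), without overlap, although LM9 replicates 2 and 3 lay nearer to the knockout-labelled libraries than to LM1.

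Msmo1, the C4 methyl oxidase that acts in the same demethylation as Nsdhl and Hsd17b7, fell instead. It had 136, 143 and 139 CPM in LM1 libraries, 140.1, 195 and 199 CPM in those of LM9 and 53.1 to 57.2 CPM in knockout-labelled libraries, and its log2 fold change was −1.52 (adjusted p = 4.66e-09). The enzymes of a single demethylation therefore moved in opposite directions. Smaller rises were called for Lss, which closes the sterol rings (0.35, adjusted p = 2.57e-05), Tm7sf2, a sterol reductase (0.39, adjusted p = 4.14e-05), and Dhcr7, which makes the last reduction (0.21, adjusted p = 0.00665). For Dhcr7 the parental and knockout-labelled libraries overlapped, and the change was 0.39 in LM1 (adjusted p = 0.00126) but 0.03 in LM9 (adjusted p = 0.779), or −0.09 without LM9 replicate 1 (adjusted p = 0.059). Tm7sf2 overlaps Vps51 on the same strand. Sc5d, the desaturase, fell by 0.26 (adjusted p = 0.00147), but under library totals it was at 0.02, with the sign turned. In LM9 Sc5d was not called (−0.16, adjusted p = 0.103), nor without LM9 replicate 1 (−0.06, adjusted p = 0.356). Cyp51, the C14 demethylase, was not called (0.05, adjusted p = 0.528), and its exons overlap Akap9 on the other strand. Stard4, a carrier of cholesterol inside the cell, was at 47.5 to 56.4 CPM in parental and 17.8 to 20.9 CPM in knockout-labelled libraries (−1.37, adjusted p = 4.9e-10).

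**Figure D3:**
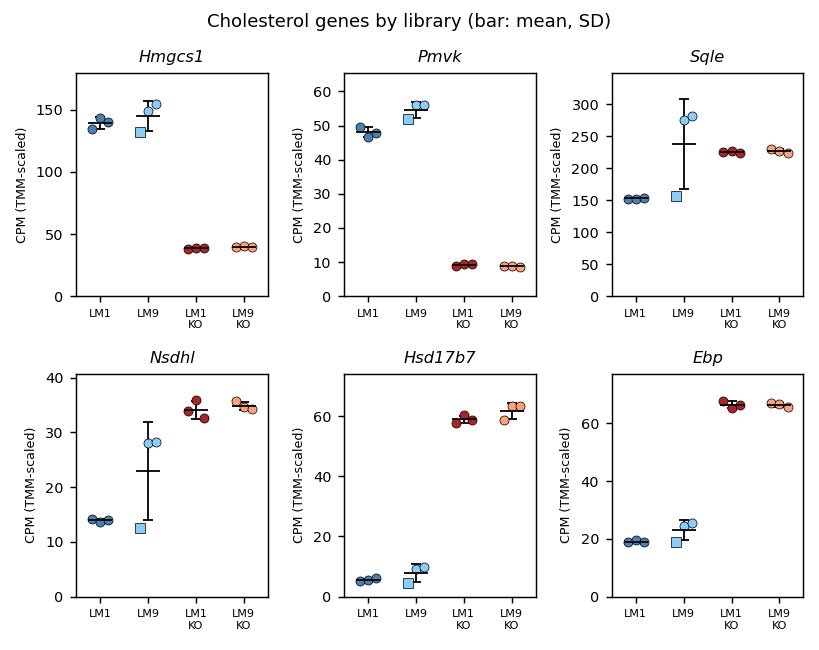
CPM (y axis, linear, from 0) of 6 cholesterol genes by group (x axis, KO = labelled Nfib knockout), with bars for the mean and SD of 3 libraries and a square for LM9 replicate 1. Hmgcs1 and Pmvk fell and Hsd17b7 and Ebp rose in both lines, while for Sqle and Nsdhl the square lay with LM1 and apart from the other LM9 libraries.

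In the fatty acid branch, 2 of 10 genes were higher, 5 lower and 3 not called, again beside 46.3% and 40.5% of all genes, with a median of −0.26. That median was 0.030 under library totals and −0.040 without genes that share over 10% of their stretches. The genes at its entry were opposed. Acly, ATP citrate lyase, makes acetyl-CoA from citrate, and Acss2 makes it from acetate. Acly was at 119, 118 and 117 CPM in LM1, at 119.7, 112 and 115 CPM in LM9 and at 296 to 300.3 CPM in knockout-labelled libraries. It rose by 1.35 ± 0.03 (adjusted p = 5.67e-12), and no spread within a group came near this difference.

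Acss2 had 99.4, 98.7 and 94.5 CPM in LM1 and 98.7, 68.5 and 62.5 CPM in LM9. It was at 15.7, 14.5 and 16.6 CPM in LM1 Nfib KO and at 16.0, 14.0 and 14.6 CPM in LM9 Nfib KO, below every parental library. The log2 fold change was −2.49 ± 0.11 (adjusted p = 6.93e-10). Its exons overlap Ggt7 and Gss on the other strand. Per kilobase of exon, the ratio of Acly to Acss2 went from 2.33 ± 0.05 (SD, n = 3) in LM1 and 3.01 ± 0.62 in LM9 to 36.8 ± 2.4 and 38.9 ± 2.4 in the knockout-labelled groups. With the lengths of the longest transcripts the same ratios were 0.985 and 1.27 in parental and 15.6 and 16.5 in knockout-labelled groups, so that which gene was higher in LM1 depended on the length used.

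The synthesis of the chain itself differed less. Fasn, fatty acid synthase, was at 338, 307 and 341 CPM in LM1, at 334, 417 and 507 CPM in LM9 and at 449 to 469.6 CPM in knockout-labelled libraries. It was called higher on average (0.31 ± 0.08, adjusted p = 0.00395), but LM9 replicate 3 was above all other libraries. The LM9 comparison of Fasn was not called (0.14, adjusted p = 0.291), and its sign turned without LM9 replicate 1 (−0.01, adjusted p = 0.836). Acaca, acetyl-CoA carboxylase, had a log2 fold change of −0.48 (adjusted p = 0.00155), a call lost under library totals (−0.19, adjusted p = 0.213). In LM9 Acaca was not called (−0.21, adjusted p = 0.232), and its sign turned without LM9 replicate 1 (0.04, adjusted p = 0.498). Its knockout-labelled libraries, at 51.2 to 54.3 CPM, were below LM1 but between LM9 replicates 2 and 3, and 26.8% of its stretches occur in other genes.

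Both elongases of the list fell. Elovl5, which extends polyunsaturated chains, was at 148, 164 and 151 CPM in LM1, at 156, 149 and 150.1 CPM in LM9 and at 58.8 to 63.9 CPM in knockout-labelled libraries (−1.32 ± 0.04, adjusted p = 4.63e-11). Elovl6, which extends saturated chains made by fatty acid synthase, had 139, 149 and 142 CPM in LM1 but 142, 43.1 and 43.8 CPM in LM9. In knockout-labelled libraries Elovl6 was at 25.5 to 28.4 CPM, below every parental library, with a log2 fold change of −1.86 ± 0.25 (adjusted p = 2.41e-05). The wide error came from LM9, where replicate 1 had over 3 times the CPM of the others.

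Among the listed fatty acid desaturases, only Scd1 was called in the averaged comparison with all libraries. Scd1, the stearoyl-CoA desaturase, was the most abundant listed gene per kilobase in both parental lines. It was at 859, 939.6 and 898 CPM in LM1, at 888, 1115 and 1221 CPM in LM9 and at 408 to 429 CPM in knockout-labelled libraries (−1.22 ± 0.07, adjusted p = 6.6e-09). Its paralog Scd2 was at 542 to 651 CPM in parental and 593 to 611 CPM in knockout-labelled libraries, with overlap and a log2 fold change of 0.08 ± 0.04 (adjusted p = 0.125). Per kilobase, the ratio of Scd1 to Scd2 was 1.82 ± 0.05 (SD, n = 3) in LM1 and 2.00 ± 0.16 in LM9, and 0.77 ± 0.02 and 0.78 ± 0.01 in LM1 and LM9 Nfib KO, so that their order was reversed. Fads1 and Fads2, the desaturases of polyunsaturated chains, were at −0.04 ± 0.04 (adjusted p = 0.386) and 0.03 ± 0.07 (adjusted p = 0.679).

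**Figure D4:**
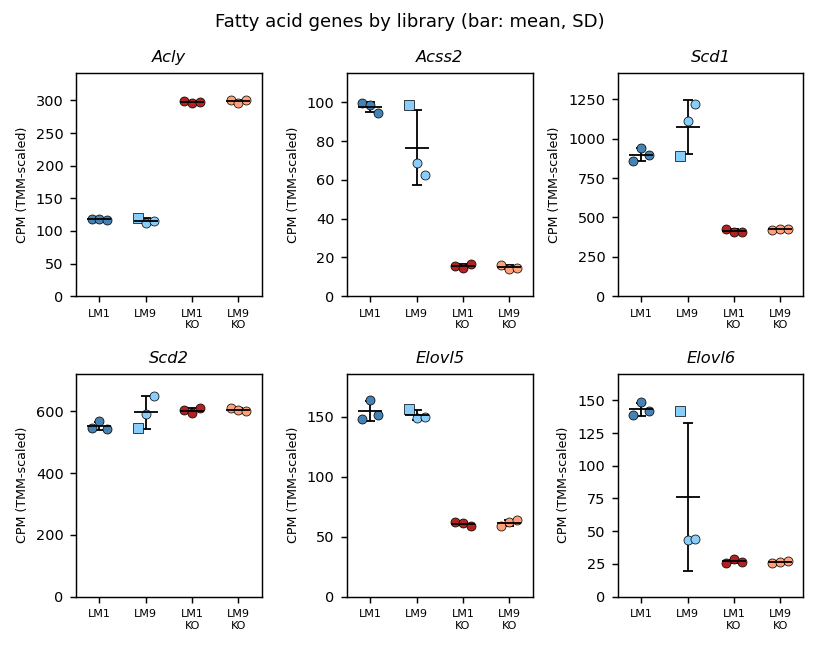
CPM (y axis, linear, from 0) of 6 fatty acid genes by group (x axis, KO = labelled Nfib knockout), with bars for the mean and SD of 3 libraries and a square for LM9 replicate 1. Acly rose and Acss2, Elovl5 and Scd1 fell in both lines, Scd2 overlapped between groups, and the LM9 values of Elovl6 were split between replicate 1 and the others.

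Summed over genes, the branches differed less than many of their members. The 19 cholesterol genes summed to 991 ± 15 CPM (SD, n = 3) in LM1, 1206 ± 183 CPM in LM9 and 872 ± 4 and 876 ± 2 CPM in LM1 and LM9 Nfib KO. The 10 fatty acid genes summed to 2505 ± 46 CPM in LM1, 2711 ± 230 CPM in LM9 and 2059 ± 23 and 2068 ± 8 CPM in LM1 and LM9 Nfib KO. The 5 regulators went from 862 ± 27 and 966 ± 85 CPM to 343 ± 4 and 345 ± 9 CPM. In each of the 3 sums every parental library was above every knockout-labelled library, but for both branches this rested on the scaling. Per library total, the cholesterol sum was 924 to 1090 CPM in parental and 956 to 972 CPM in knockout-labelled libraries, and the fatty acid sum 2222 to 2431 CPM and 2254 to 2294 CPM, with overlap. The regulators, at 791 to 841 CPM and 371 to 390.1 CPM, did not overlap on this scale either. These sums over chosen genes were not tested.

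LM1 and LM9 were compared directly, and the result rested on LM9 replicate 1. For the listed genes this library lay nearer to LM1 than to the other LM9 libraries in 31 of 34, all but Mvk, Pmvk and Idi1. With all libraries, limma-voom called 0 of the 34 between LM1 and LM9, and only 1 of all 18176 genes tested. Nothing particular to the 34 is therefore read from the absence of calls. An unadjusted p under 0.05 was found for 19 of the 34, against 47.7% of all genes. For the 34, edgeR called 0, while DESeq2 called 2 higher and 16 lower (16.5% and 24.6% of the 14968 genes it gave an adjusted p). Without that library 7 were higher and 22 lower in LM1, against 33.4% and 32.4% of all genes. The difference of the knockout-labelled change between lines was also called for 0 of 34 by limma-voom, edgeR and DESeq2. In limma-voom it was called for 0 of all 18176 genes tested, so nothing particular to the 34 is read from this. In limma-voom 7 of the 34 had an unadjusted p under 0.05, against 24.7% of all genes. Without LM9 replicate 1 this difference was called higher in LM1 for 19 and lower for 6, against 27.6% and 29.6% of all genes.

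Some of the genes affected by that library show how. Sqle was at 152, 152 and 154 CPM in LM1 and at 156, 276 and 282 CPM in LM9, while all knockout-labelled libraries were at 224 to 229.9 CPM. These lie above LM1 and between the LM9 libraries. In LM1 Sqle was higher in knockout-labelled libraries (0.56 ± 0.17, adjusted p = 0.0108), and in LM9 it was at −0.02 ± 0.17 (adjusted p = 0.938). Without LM9 replicate 1 the LM9 value was −0.29 ± 0.03 (adjusted p = 5.71e-08), and the difference between lines was 0.86 (adjusted p = 3.33e-11).

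Mvd showed the same split, at 10.5, 8.95 and 9.47 CPM in LM1, at 9.34, 16.7 and 18.1 CPM in LM9 and 11.4 to 13.8 CPM in knockout-labelled libraries. Without LM9 replicate 1 its log2 fold change was 0.44 in LM1 (adjusted p = 4.99e-05) and −0.51 in LM9 (adjusted p = 1.39e-05). Cyp51, at 0.18 and −0.22, and Fads2, at 0.13 and −0.20, were then also called in opposite directions in LM1 and LM9. Fads1 in LM9 went from −0.10 (adjusted p = 0.141) to −0.16 (adjusted p = 0.00115), a call gained. For Elovl6, leaving this library out took the LM9 change from −1.30 to −0.72 (adjusted p = 1.5e-09), against −2.41 in LM1, and with all libraries the LM9 call was lost under library totals (−0.94, adjusted p = 0.0521). Nsdhl in LM9 went from 0.72, not called when the LM9 groups were fitted alone (0.71, adjusted p = 0.069), to 0.31 (adjusted p = 4.33e-05), and Hsd17b7 from 3.09 to 2.70 (adjusted p = 3.84e-15). Insig1 (−3.20 and −3.23), Acly (1.37 and 1.40) and Hmgcs1 (−1.86 and −1.93) moved little.

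**Figure D5:**
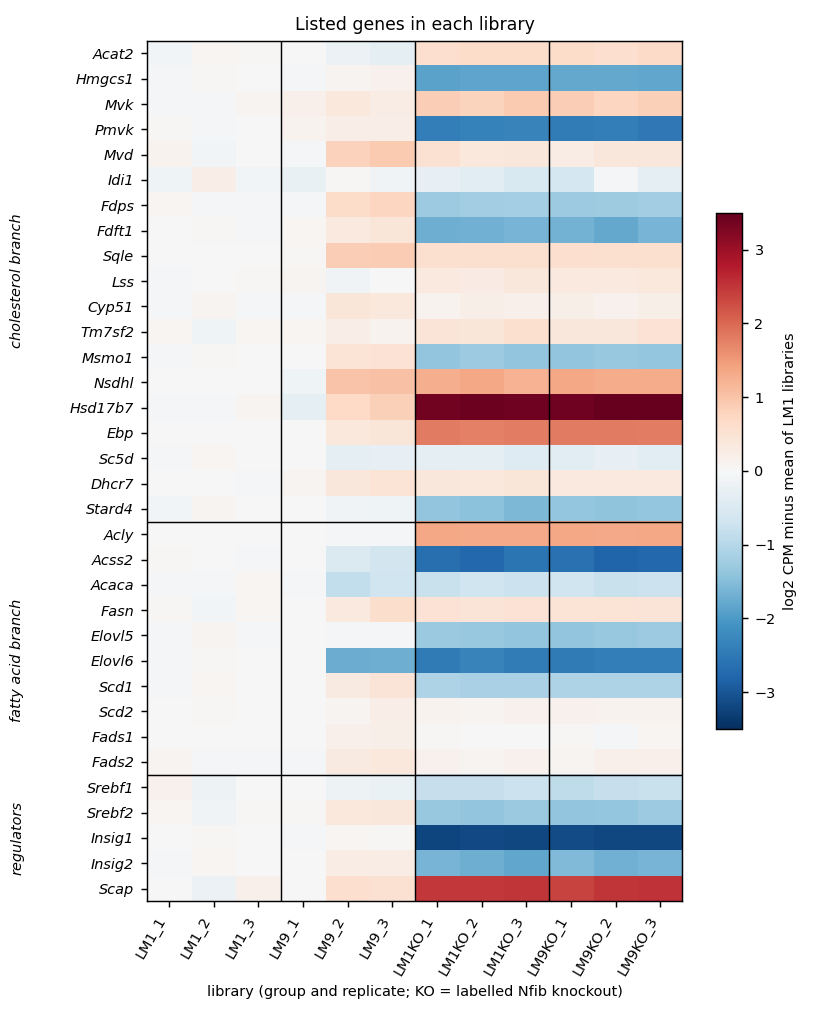
Log2 CPM of the 34 listed genes (rows, by branch) in the 12 libraries (columns, by group, KO = labelled Nfib knockout), minus the mean of the LM1 libraries. LM9 replicate 1 was near 0 for most genes, as LM1 was, LM9 replicates 2 and 3 shared a pattern of their own, and the 6 knockout-labelled libraries were alike.

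LM1 Nfib KO and LM9 Nfib KO differed little in the listed genes. None of the 34 was called between them by limma-voom, edgeR or DESeq2, 0 had an unadjusted p under 0.05, and the log2 fold changes lay between −0.10 and 0.08, with an SE of up to 0.38 (Elovl6). Over all genes 0 were called and 178 had such a p in limma-voom. Where LM9 replicates 2 and 3 stood apart from LM1, as for Elovl6 and Sqle, their knockout-labelled counterparts did not.

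Other genes of lipid metabolism, taken from lists of names, were also called in both directions, and their counts are to be read beside the 46.3% higher and 40.5% lower of all genes. Of 11 genes of SREBP processing and sterol sensing, 6 were higher and 3 lower in the averaged comparison. Rnf145, a ubiquitin ligase of the sterol-sensing machinery, had 307 ± 6 CPM in LM1, 287 ± 19 CPM in LM9, and 36.3 ± 1.2 and 36.3 ± 1.5 CPM in LM1 and LM9 Nfib KO (−3.03, adjusted p = 2.26e-13). The proteases that cut SREBPs in turn moved in opposite directions, Mbtps1 by −0.85 (adjusted p = 7.37e-05) and Mbtps2 by 1.08 (adjusted p = 7.55e-08). Ube2g2, a ubiquitin-conjugating enzyme, rose by 0.79 (adjusted p = 8.48e-05).

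Among 28 further fatty acid enzymes, 16 were higher and 11 lower. Elovl7 (−3.99) and Acsl3, an acyl-CoA synthetase (−2.36, adjusted p = 5.09e-11), fell, as both listed elongases did. Elovl4, the elongase of very long chains, was at 0 counts in the LM9 libraries and 0 to 1 in LM1, and at 17.5 ± 1.1 and 18.2 ± 1.2 CPM in LM1 and LM9 Nfib KO. In LM9 it was at least 150-fold higher in knockout-labelled libraries, taking 3 counts per library as the floor. Oxsm, a mitochondrial ketoacyl synthase, rose from 0.84 ± 0.18 CPM (LM1) and 0.50 ± 0.62 CPM (LM9) to 11.01 ± 0.45 and 10.6 ± 0.4 CPM (adjusted p = 6.27e-08).

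Of 15 genes of the isoprenoid branch after farnesyl diphosphate, 8 were higher and 6 lower. The protein prenylation genes Rabggtb (−1.15, adjusted p = 3.05e-09) and Icmt (−0.91, adjusted p = 9.46e-09) fell. Pdss1, which makes the side chain of ubiquinone, rose by 4.99 (adjusted p = 3.08e-10).

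Of 26 genes of uptake, export and storage, 11 were higher and 11 lower. Mylip, a ligase that targets lipoprotein receptors, fell by 4.03 (adjusted p = 1.34e-07), and Npc2, which moves cholesterol out of lysosomes, by 3.01 (adjusted p = 7.17e-11). Vldlr, a lipoprotein receptor, had at most 4 counts in any parental library and 40.0 ± 0.4 and 40.1 ± 2.0 CPM in LM1 and LM9 Nfib KO. Slc27a4, a fatty acid transporter, rose by 2.47 (adjusted p = 2.75e-08).

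Of 25 genes of fatty acid oxidation, the opposite route, 14 were higher and 10 lower. Cpt1a, which admits fatty acids to mitochondria, rose from 51.0 ± 1.2 CPM (LM1) and 43.0 ± 8.4 CPM (LM9) to 251 ± 5 and 255 ± 2 CPM (2.44, adjusted p = 2.22e-11), and its paralog Cpt1c by 1.73 (adjusted p = 9.87e-09). Acaa1a, a thiolase of peroxisomes, and Acadm, an acyl-CoA dehydrogenase, fell by 2.74 (adjusted p = 4.69e-11) and 1.31 (adjusted p = 3.62e-06). Genes that make and genes that burn fatty acids were thus found on both sides.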

How the data were processed

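Stranded poly-A libraries were sequenced single-end, aligned by the authors with STAR to mm10, and counted with QuasR as reads whose 5′ ends met the exon union of a gene. The authors deposited these counts as whole numbers, not normalised, in 1 file per library. Versions and the handling of multiply aligned reads were not given in the sources used here. Of 18278 identifiers, 18268 were matched in GENCODE M21 (GRCm38).

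From the counts, the edgeR function filterByExpr (count minimum 10, total minimum 15) kept 18176 genes. limma-voom was run with TMM factors and 1 mean per group over all 12 libraries, with two-sided moderated tests and Benjamini-Hochberg adjustment over all genes tested. The software was limma 3.58.1, DESeq2 1.42.0 and edgeR 4.0.16 in R 4.3.3. In simulated data, 200 genes were raised 2-fold in the knockout-labelled libraries, and every other gene had 1 mean across all libraries. Of the raised genes, 199 were recovered in LM1, 196 in LM9 and 200 in the average. Among the 17610 genes tested, 19, 14 and 13 others were called. The real data had far more changed genes and an LM9 replicate unlike the others, so this checked the code and not the calls reported here. A floor of 3 counts was 0.073 to 0.121 CPM and covers counting error only. Per-kilobase values used the exon union.

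Groups came from sample titles. The members, branches and related lists were chosen with earlier results of these data known. Every regulator was named with full statistics, with the 3 largest called rises and falls per branch, and for each related list the 2 largest called rises and falls at a mean of at least 5 CPM. A gene that this rule takes from the isoprenoid list is not reported here. Other tools, scalings, filters, a replicate block, quality weights and leaving out each library were tried as alternatives.

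Of the remaining marker lists, Cd68, the leukocyte marker counted, was at 450.1 to 554 CPM in parental and 95.7 to 104 CPM in knockout-labelled libraries. Retn, the adipocyte marker counted, was at 0.766 to 1.84 CPM and at most 0.0523 CPM.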

Additional observations from a re-analysis of the deposited data

How the results depend on the processing

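Of 102 single-gene results (34 genes in LM1, in LM9 and averaged), 73 kept their direction and call under every alternative. Across all alternatives, 2019 values had the same direction and call, 13 lost their call, 48 gained one and 28 changed sign. The 28 included 1 called result, Sc5d averaged, at 0.0243 under library totals.

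Library totals gave 16 genes higher and 13 lower in LM9 (52.3% and 30.2% of all genes), and 17 and 14 in the average (52.8% and 33.6%). Its medians for the cholesterol branch, the fatty acid branch and the regulators were 0.57, −0.14 and −1.11 in LM1, 0.28, 0.20 and −1.24 in LM9, and 0.40, 0.0304 and −1.18 in the average. Between LM1 and LM9, 3 higher and 2 lower were called with library totals (21.8% and 6.95% of all genes), 2 and 8 with a mean of at least 5 CPM (21.9% and 17.6%), 2 and 16 with DESeq2 (16.5% and 24.6%), and 6 and 21 with sample quality weights (32.5% and 31.2%). Quality weights called 20 higher and 6 lower for the difference between lines (28.2% and 29.9% of all genes). Without genes with shared stretches, an alternative chosen after seeing the data, the fatty acid median was 0.0202 in LM1, −0.10 in LM9 and −0.0405 in the average.

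Leaving out 1 library at a time, the calls between LM1 and LM9 ran from 0 to 7 higher and 0 to 22 lower, and for the difference between lines from 0 to 19 and 0 to 6, with the highest without LM9 replicate 1 (33.4% and 32.4%, and 27.6% and 29.6%, of all genes). The cholesterol median ran from −0.22 to 0.0198 in LM9 and from −0.0225 to 0.22 in the average, the fatty acid median from −0.22 to −0.12 in LM9 and the regulators from −1.71 to −1.53 in LM9. In LM9, Sqle ran from −0.292 to 0.14, Cyp51 from −0.22 to 0.0198, Dhcr7 from −0.0904 to 0.108, Acaca from −0.371 to 0.0408, Fasn from −0.013 to 0.29, Scd2 from −0.0328 to 0.0933 and Fads2 from −0.200 to 0.0232. In the average, Mvd ran from −0.0314 to 0.22, Cyp51 from −0.0225 to 0.098 and Fads2 from −0.0348 to 0.0767. Of these single genes, all but Sqle, Cyp51 and Fads2 in LM9 changed sign without LM9 replicate 1, and those 3 without LM9 replicate 2 or 3. The cholesterol median changed sign without LM9 replicate 2 in LM9 and without LM9 replicate 1 in the average.

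With library totals, uncalled LM9 values changed sign for Mvd (0.15), Idi1 (0.15), Sqle (0.34), Cyp51 (0.28), Sc5d (0.20), Acaca (0.15), Fads1 (0.25) and Fads2 (0.29), and the average for Fads1 (0.25). With quality weights this held in LM9 for Dhcr7 (−0.0955), Acaca (0.0063), Fasn (−0.0349) and Scd2 (−0.047), and in the average for Mvd (−0.0161), Cyp51 (−0.018) and Fads2 (−0.0243). The cause of these changes was not tested.

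The replicate numbers did not pair the libraries (r of same-numbered deviations −0.0876 to 0.0406). With the replicate block, 12 and 17 genes were called in LM1, 9 and 14 in LM9 and 11 and 17 in the average, as without it.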
